A study of Mus musculus with 797 samples.

Results

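Pvalb interneuron nuclei were described here among single nuclei sorted from mouse brain for the yellow reporter of an enhancer virus. Members were chosen by measured levels: Gad1 and Gad2 together reached 10 CPM (the nucleus's count of a gene over its total, scaled to 1e6), Slc17a7 and Adarb2 each stayed under 10 CPM, and Pvalb reached 10 CPM and exceeded Sst. This held for 136 of the 781 nuclei kept, and for 136 of the 310 nuclei that were GABAergic, that is with Gad1 or Gad2 and without Slc17a7. The other 174 GABAergic nuclei comprised 104 Sst nuclei, with Sst at or above Pvalb and without Adarb2, 53 Adarb2 nuclei, and 17 nuclei of neither kind. All animals were C57Bl/6J mice given 1 adeno-associated virus in the capsid PHP.eB, at 5e11 vector genomes per mouse, 3 to 4 weeks before collection. The virus drove H2B-SYFP2, a histone fused to a yellow fluorescent protein, from 1 of 16 AiE enhancers or from 1 of 4 reference elements, which were CMV, hSyn1, hI56i and DLX2.0. Every nucleus was thus sorted for reporter, so that the enhancer's own activity, the sort and the tissue together set which cells were sampled. No animal is named, so the 39 or 40 nuclei of a vector label were treated as 1 sample.

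Parvalbumin interneurons are fast-spiking inhibitory neurons that arise, with the somatostatin interneurons, from the medial ganglionic eminence, whereas most Adarb2 interneurons arise from the caudal one. They fire long trains of brief spikes, which rests on Kv3 potassium channels that close quickly, and their synapses release GABA fast and in synchrony. Their energy demand is high, many are wrapped in a perineuronal net, a lattice of extracellular matrix, and they receive strong glutamatergic drive that is shaped by the neuregulin receptor ErbB4.

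The nuclei carry the tissue label striatum. Against that label, 435 of the 781 nuclei had Slc17a7, the vesicular glutamate transporter of cortical-type glutamatergic neurons, which spiny projection neurons of the striatum lack. Of the 13 spiny projection neuron markers, 6 had no read in any member, and 3 of the 136 members had reads of 3 or more. The 4 cholinergic interneuron markers had no read in the members. As the rule chose the members for Pvalb, these marker counts describe the members and do not bear on the tissue. Libraries came in 3 sets by name, AB-S40331 with 102 members, AB-S40317 with 22 and AB-S40330 with 12. The set AB-S40317 stood apart. It held every nucleus with more than 1% mitochondrial reads, 78 of its 178 nuclei, among them 7 members and 19 of the other GABAergic nuclei, and 60 of its nuclei had more than 5000 genes, against 1 of 87 in AB-S40330 and 1 of 516 in AB-S40331. The depth of members ran from 110891 to 612427 reads (median 319186), and the median of the other GABAergic nuclei was 317553.

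The 250 bases upstream of the transcript start are shown for Pvalb, which defines the class, for Kcnc1, the Kv3.1 channel gene whose vector label sums did not overlap between the classes, and for Syt2, a synaptic calcium sensor. Sequences are RefSeq windows on GRCm38.p6, written 5′ to 3′ on the gene's strand. Capitals mark matches on either strand to the GC box GGGCGG, the oestrogen-related receptor element TCAAGGTCA, the TATA box TATAAA or the E-box CACGTG.
Pvalb, chr15:78206401-78206650, minus strand: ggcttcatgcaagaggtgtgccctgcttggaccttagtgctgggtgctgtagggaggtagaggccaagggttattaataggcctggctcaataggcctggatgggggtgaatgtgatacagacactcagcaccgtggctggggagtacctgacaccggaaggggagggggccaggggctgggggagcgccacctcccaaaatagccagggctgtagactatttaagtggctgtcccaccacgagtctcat
Kcnc1, chr7:46396218-46396467, plus strand: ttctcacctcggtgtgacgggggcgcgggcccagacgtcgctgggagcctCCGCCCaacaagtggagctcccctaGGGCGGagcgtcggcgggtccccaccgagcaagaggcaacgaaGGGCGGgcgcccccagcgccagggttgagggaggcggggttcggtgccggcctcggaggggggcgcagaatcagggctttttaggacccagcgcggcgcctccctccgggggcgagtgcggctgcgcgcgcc
Syt2, chr1:134646362-134646611, plus strand: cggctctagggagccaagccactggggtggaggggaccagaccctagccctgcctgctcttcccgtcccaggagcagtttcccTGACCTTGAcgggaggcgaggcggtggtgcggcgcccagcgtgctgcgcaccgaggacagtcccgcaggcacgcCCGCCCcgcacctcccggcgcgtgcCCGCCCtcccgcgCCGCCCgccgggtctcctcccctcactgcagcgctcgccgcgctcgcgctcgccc
The Pvalb window held none of these letters, and the same was true of the window of its other annotated start. Kcnc1 had 3 GC boxes, and the first Syt2 start had 3 GC boxes and 1 oestrogen-related receptor element, written on the opposite strand. The second Syt2 start, whose window is not shown, had 2 GC boxes and no such element. The windows of Erbb4, Pthlh and Tac1, also looked up, did not hold the element either. Over all 32851 windows of this length, 32.7% held a GC box and 0.387% held the oestrogen-related receptor element, 12.4% a TATA box and 6.02% an E-box. These are matches of letters and not measured sites.

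Of the 6 marker genes named for the class, Pvalb and Gad1 chose the members and their values are a description only. Pvalb (chr15:78191114-78206400 on mm10), a calcium-binding protein, lay between 45.7 and 6794 CPM in the members with a median of 476 CPM. The lowest members had 45.7, 78.7 and 112 CPM, and no GABAergic nucleus had a Pvalb read under 10 CPM, so the limit itself cut through no nuclei. Just outside the class stood 20 nuclei with Pvalb reads kept out by Sst, at a median of 172 CPM of Pvalb, and 5 kept out by Adarb2, at 455 CPM. In the members 16 nuclei had an Sst read, at most 193 CPM. Gad1 (chr2:70553072-70602014), which makes GABA, was read in 97.8% of members at a median of 1117 CPM, and 3 members had no Gad1 read and entered through Gad2. Gad2, the second GABA-making enzyme, was read in 67.6% of members and in 81.0% of the other GABAergic nuclei, with means of 295 ± 392 and 876 ± 950 CPM (SD over nuclei).

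The 4 markers outside the rule were read in most or some of the members. Kcnc1 (chr7:46396497-46438704), the Kv3.1 channel, was read in 97.8% of members (95% Clopper-Pearson interval 93.7 to 99.5), against 76.9% of Sst, 81.1% of Adarb2 and 34.9% of Slc17a7 nuclei. Erbb4 (chr1:68032186-69108059), the neuregulin receptor, was read in 94.9% of members (89.7 to 97.9), against 20.2%, 77.4% and 5.52% in the same order of classes. Cox6a2 (chr7:128205435-128206387), the muscle-type subunit of cytochrome c oxidase, was read in 63.2% of members (54.5 to 71.3), against 2.88%, 15.1% and 3.68%. Pthlh (chr6:147252101-147264183), a parathyroid hormone-like peptide, was read in 29.4% of members (21.9 to 37.8), against 1.92%, 15.1% and 1.61%. Each share was higher in the members than in these 3 classes. In the 17 GABAergic nuclei of no class, Erbb4 was read in 16 (94.1%, 71.3 to 99.9), Kcnc1 in 15 (88.2%, 63.6 to 98.5), and Cox6a2 and Pthlh in 5 each (29.4%, 10.3 to 56.0), so that the Pthlh share equalled that of the members and the Erbb4 share lay close to it. The median depth of 280564 reads in the Slc17a7 nuclei was below that of the members, and the shares at a common depth of 100000 reads were 97.8%, 94.1%, 63.2% and 28.7% in members for the 4 genes, against 32.7%, 4.87%, 3.48% and 1.39% in Slc17a7 nuclei. All 4 were read in 30 of the 136 members, 3 in 61, 2 in 41, 1 in 3 and none in 1 member. Kcnc1 and Erbb4 were thus read in nearly every member, whereas Cox6a2 and Pthlh were read in a part of them. Whether members without a read lacked the transcript was not tested.

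**Figure D1:**
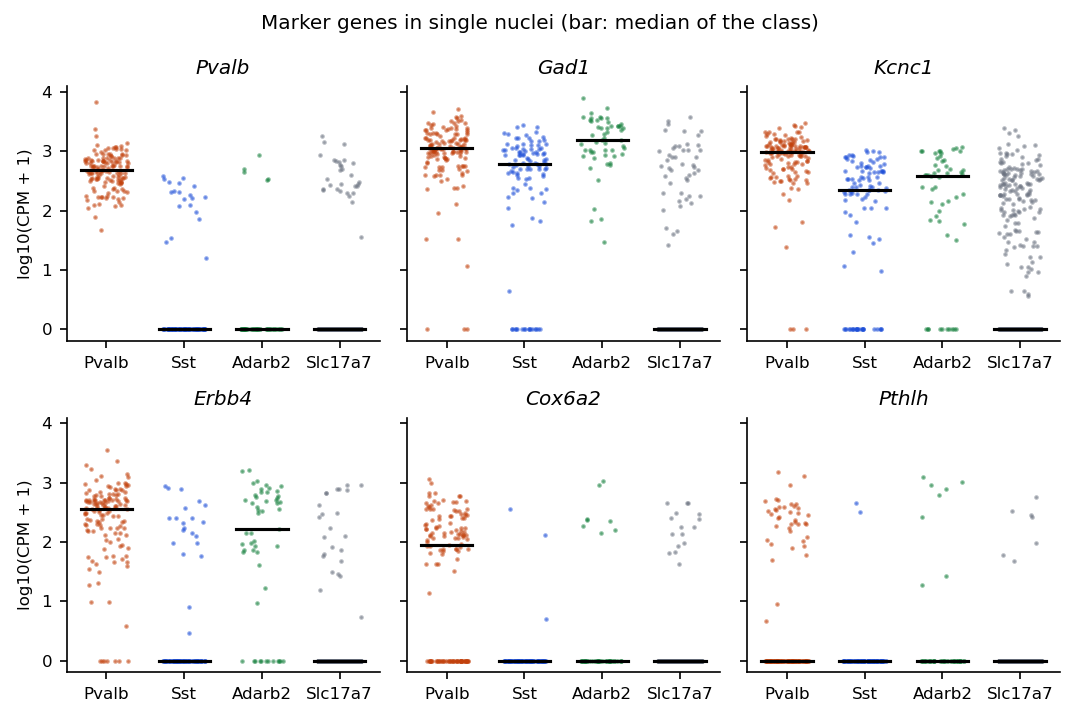
Levels of the 6 marker genes in single nuclei on a log10(CPM + 1) axis, for Pvalb, Sst, Adarb2 and Slc17a7 nuclei; each point is 1 nucleus and the bar is the class median. Pvalb and Gad1 are genes of the membership rule, the medians of Kcnc1 and Cox6a2 in Pvalb nuclei were 981 and 87.3 CPM, and the median of Pthlh was 0 in every class.

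The number of members differed widely between vector labels, which the design treats as 1 sample each without a test. Members made up 17.4% of all nuclei kept (14.8 to 20.3), and 15 of the 20 labels had at least 1. AiE0390m had 13 of 39 nuclei (33.3%, 19.1 to 50.2), and AiE0475m had 12 of 39. AiE0450h, AiE0452h and AiE0600m had 11 each, AiE0410m and AiE0682h 10 each, AiE0743m_3xC2 had 9, AiE0391h and AiE0447h 4 each, and AiE0445h_3xC2 had 1. AiE0078h, AiE0140h, AiE0387m, AiE0401h and AiE0779m had 0 members. Taking 3 counts as the limit of a count of 0, this allows a share of up to 7.5% for the 3 of them with 40 nuclei, 7.69% for AiE0779m and 7.89% for AiE0387m, and the upper Clopper-Pearson bounds are 8.81%, 9.03% and 9.25%. Among the reference elements CMV, DLX2.0 and hI56i had 12 each and hSyn1 had 4 of 38 (10.5%, 2.94 to 24.8). The intervals of the labels from AiE0743m_3xC2 upward overlapped one another, so their order is not resolved. As a share of GABAergic nuclei, members were 12 of 34 with hI56i (35.3%, 19.7 to 53.5), 12 of 27 with DLX2.0 (44.4%, 25.5 to 64.7) and 12 of 20 with CMV (60.0%, 36.1 to 80.9).

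The library set moved with these shares. Members were 12.4% of the nuclei of set AB-S40317 (7.91 to 18.1), 13.8% of AB-S40330 (7.34 to 22.9) and 19.8% of AB-S40331 (16.4 to 23.5). Within a label the sets also differed. AiE0447h had 4 members among 8 nuclei of AB-S40317 and 0 among 30 of AB-S40331. The opposite held for AiE0475m, with 12 members among 23 nuclei of AB-S40331 and 0 among the 16 nuclei of the other sets. All 4 members of AiE0391h came from AB-S40317 and had more than 1% mitochondrial reads. Whether a set marks a sort, an animal or only a sequencing pool is not stated, so set and animal cannot be told apart.

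**Figure D2:**
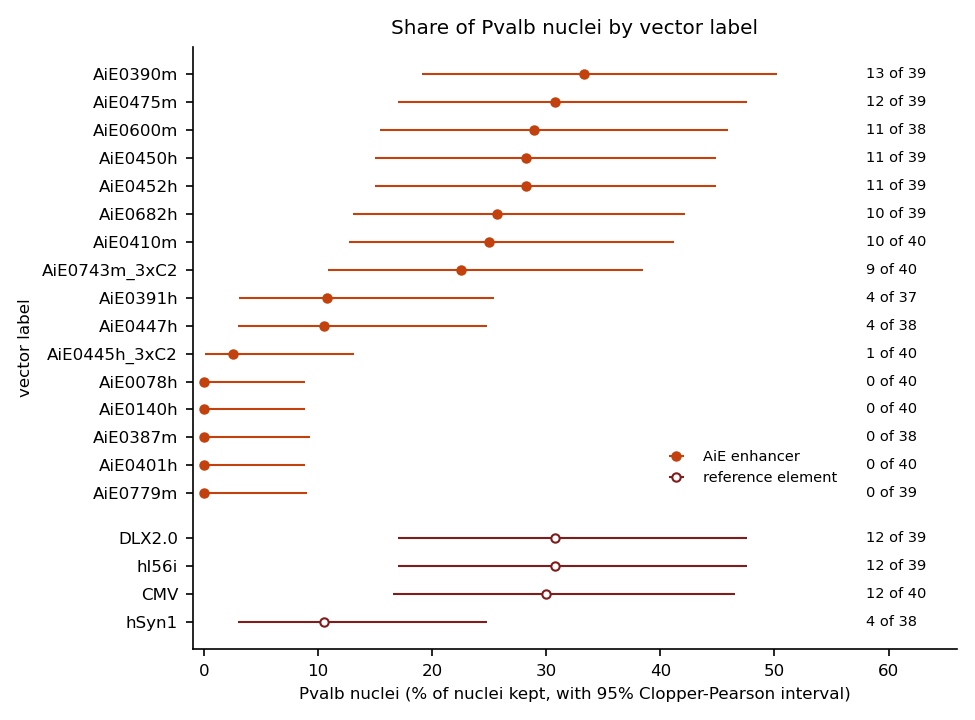
Share of Pvalb nuclei among the nuclei kept of each vector label, in percent, with 95% Clopper-Pearson intervals that cover counting error only; AiE enhancers stand above, reference elements below. Shares ran from 33.3% (AiE0390m) to 0 in 5 AiE labels.

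Genes of the members were compared with those of the other classes after summing reads per vector label and class, so that each label gave 1 value per class. The test was edgeR's quasi-likelihood test with the label as block and Benjamini-Hochberg adjustment, and genes of the membership rule were left out. Against all other GABAergic nuclei, 14 labels entered with 135 members and 167 other nuclei. Of 9668 genes tested, 56 were higher in the members (0.579%) and 102 were lower (1.06%) at an adjusted p under 0.05, and the median log2 fold change over all tested genes was 0.06. DESeq2 called 452 higher and 482 lower, and limma with equal weight per nucleus called 712 higher and 234 lower, so the split between directions depended on the test. In set AB-S40331 alone 21 genes were higher and 38 lower, and without nuclei over 1% mitochondrial reads 35 were higher and 57 lower. The p-values rest on labels that are not stated to be separate animals, and a gene that was not called is not shown to be equal. Where a class had few or no reads of a gene in some labels, the fitted value depends on the model. For several such genes the ratio of summed reads, which needs no such value, is given in its place. A ratio against a class with 0 reads was computed with 3 reads over the class. It covers the counting of reads only and is no lower bound over nuclei, since 1 nucleus can hold many reads.

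Among genes of the fast-spiking phenotype, Kcnc1 and Kcnip2 rose. Kcnc1 had 575 to 1499 CPM in the label sums of the members with a median of 984, against 177 to 559 CPM with a median of 350 in the other GABAergic nuclei. The ranges did not overlap, and all 14 labels were higher in the members. The share of all tested genes without overlap is not given here, so here and below non-overlap only describes the gene named. The log2 fold change was 1.49 ± 0.17 (SE, adjusted p = 1.12e-05), and the call held in all 11 alternative settings and on leaving out each label. Kcnip2, which encodes an auxiliary subunit of Kv4 potassium channels, had a median of 211 CPM in the members (29.1 to 423), against 30.6 CPM (0 to 122), and was higher in 14 of 14 labels (adjusted p = 0.0106), a call that was lost in set AB-S40331 alone. Kcnc2, another Kv3 gene, did not pass, with medians of 399 CPM in the members and 194 CPM in the other GABAergic nuclei (log2 fold change 0.70 ± 0.24, adjusted p = 0.208). Of the 19 tested genes of the potassium channel list, 2 rose, 3 fell and 14 did not pass, with a median log2 fold change of 0.70, against 0.06 over all genes. Beside the counts of this list and of those below against the same nuclei, 0.579% of all tested genes rose and 1.06% fell. The 3 that fell were Kcnd3, the Kv4.3 channel, Kcnn2, the small-conductance calcium-activated channel, and Kcnt2, a sodium-activated channel. Kcnd3 was read in 1.47% of members and 27.6% of the other GABAergic nuclei (adjusted p = 0.000697), and was not called without the label block. Kcnn2 was read in 37.5% and 43.1%, at medians of 31.6 and 126 CPM in members and in the other nuclei (adjusted p = 0.0275). The call of Kcnn2 was lost on leaving out AiE0452h, CMV, DLX2.0 or hI56i, and that of Kcnt2 (adjusted p = 0.0451) on leaving out most single labels.

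Of the 16 tested genes of the list of sodium, calcium and other cation channels, 3 fell, with a median log2 fold change of 0.06 over the list. Cacna2d3, an auxiliary calcium channel subunit, had a median of 16.6 CPM in the members (0 to 137), against 618 CPM (196 to 928), without overlap (adjusted p = 0.00326). Cacna1e, the R-type calcium channel, was read in 6.62% of members and 41.4% of the other GABAergic nuclei, and Cacna1g, a T-type channel, in 8.09% and 31.03% (adjusted p = 0.00864 and 0.0249). The call of Cacna1e was lost in set AB-S40331 alone. That of Cacna1g was lost without the label block and on leaving out any of 7 labels, AiE0390m, AiE0410m, AiE0450h, AiE0452h, AiE0600m, CMV or DLX2.0. Scn1a, a sodium channel of fast-spiking cells, missed the threshold with 659 CPM in the members, against 372 CPM (log2 fold change 0.66 ± 0.18, adjusted p = 0.0592).

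**Figure D3:**
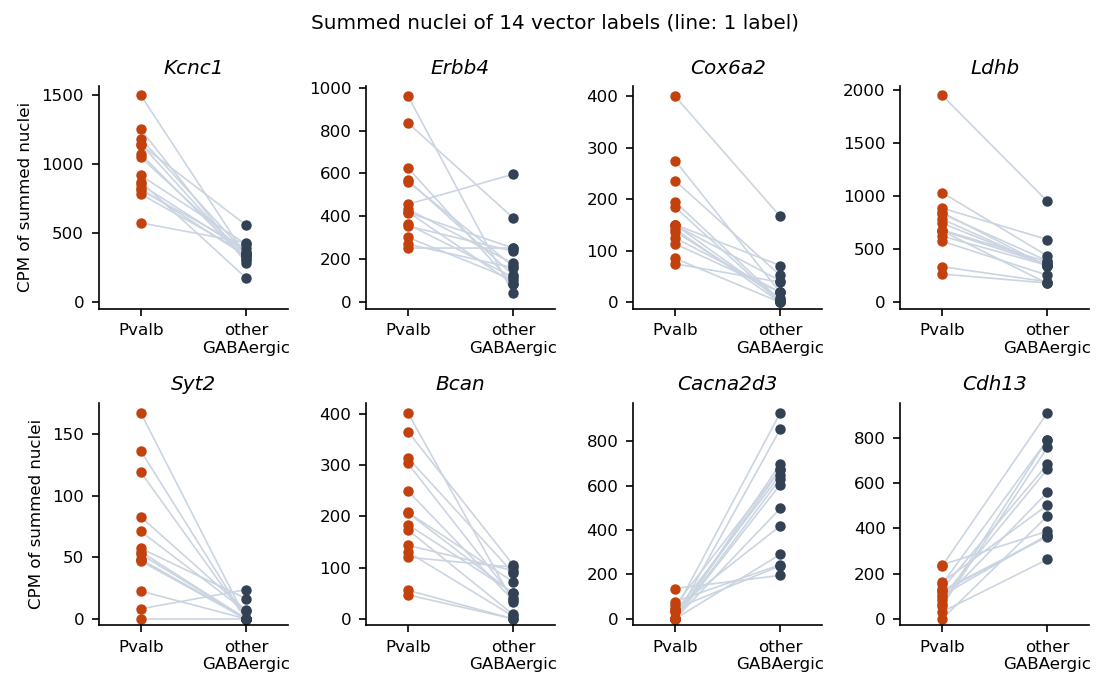
CPM of reads summed per vector label, Pvalb nuclei left and all other GABAergic nuclei right, for 8 called genes; each line joins the sums of 1 of 14 labels. Kcnc1, Cacna2d3 and Cdh13 separated without overlap, whereas Erbb4, Cox6a2, Ldhb, Syt2 and Bcan overlapped between classes.

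In the release machinery, Syt2 and Unc13c changed in opposite directions. Syt2, the fast calcium sensor whose promoter is shown above, was read in 44.9% of members and 3.45% of the other GABAergic nuclei. Its label sums had a median of 53.5 CPM in the members (0 to 167), against 0 CPM (0 to 23.7), a ratio of summed reads of 11.99, and it was higher in 12 of 14 labels (adjusted p = 0.0136). Unc13c, a vesicle priming factor, was read in 1.47% of members and 32.8% of the other nuclei, a ratio of 0.00915 (adjusted p = 7.66e-06), with label medians of 0 and 139 CPM. The remaining 17 of the 19 genes of this list did not pass, among them Cplx1, a complexin that clamps fusion, with 515 CPM in the members, against 202 CPM (adjusted p = 0.0849). The median log2 fold change of the list was -0.14. The Syt2 call was lost in set AB-S40331 alone, with at least 5 nuclei per class and without the label block.

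The energy metabolism list had 3 genes that rose among 17 tested, with a median log2 fold change of 0.31. Cox6a2 had a median of 150 CPM in the members (74.8 to 400), against 19.4 CPM (0 to 167), and was higher in 14 of 14 labels (ratio of summed reads 4.99, adjusted p = 0.0182). The ranges overlapped through AiE0391h, whose other GABAergic nuclei had 167 CPM and whose members all had more than 1% mitochondrial reads. Ldhb, the heart-type lactate dehydrogenase subunit, had 712 CPM in the members (265 to 1945), against 347 CPM (177 to 949), a log2 fold change of 1.04 ± 0.14 (adjusted p = 0.000185). Ckb, the brain creatine kinase, had 1490 CPM in the members, against 948 CPM (0.61 ± 0.11, adjusted p = 0.0037), a call that was lost in set AB-S40331 alone, without nuclei over 1% mitochondrial reads and with label and set as block. Ppargc1a, the coactivator after which the list is named, had 102 CPM in the members, against 97.7 CPM (0.86 ± 0.62, adjusted p = 0.888). Its partner Esrrg, an oestrogen-related receptor, was read in 43.4% of members and 9.20% of the other GABAergic nuclei, but did not pass (3.26 ± 1.01, adjusted p = 0.132). The Cox6a2 call did not hold in set AB-S40331 alone, without nuclei over 1% mitochondrial reads, with label and set as block, with at least 5 nuclei per class or without the block.

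Receptors for glutamate and neuregulin included a few called genes. Erbb4 had 427 CPM in the members (253 to 961), against 165 CPM (41.7 to 597), a log2 fold change of 1.44 ± 0.30, and was higher in 13 of 14 labels (adjusted p = 0.0115). It was not called in set AB-S40331 alone, nor without nuclei over 1% mitochondrial reads or with label and set as block. Of 7 tested genes of its list, which holds the neuregulins, Erbb4 was the one that passed. Gria4, an AMPA receptor subunit of fast kinetics, had 619 CPM in the members, against 333 CPM (0.86 ± 0.21, adjusted p = 0.0331), and Grin3a, an unusual NMDA receptor subunit, was read in 3.68% of members and 41.4% of the other nuclei (adjusted p = 1.07e-05). Grik1, a kainate receptor subunit, had 123 and 228 CPM in members and in the other nuclei (-1.01 ± 0.26, adjusted p = 0.042). The Gria4 and Grik1 calls were lost on leaving out most single labels. In all 1 of 19 tested glutamate receptor genes rose and 2 fell, against 0.579% and 1.06% of all tested genes.

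In the matrix and adhesion lists 4 genes rose and 1 fell. Adamts15, a protease that cuts matrix proteoglycans, was read in 27.9% of members and 3.45% of the other GABAergic nuclei, a ratio of 14.97 (adjusted p = 0.0022). Bcan, the proteoglycan brevican, was read in 70.6% and 21.8%, with medians of 195 and 45.3 CPM (log2 fold change 2.80 ± 0.58, adjusted p = 0.00969). They were the 2 of 10 tested perineuronal net genes that passed, and both were higher in 14 of 14 labels. The Bcan call held in every setting that tested it, whereas that of Adamts15 was lost without the label block. Acan, the aggrecan core protein of these nets, was read in 9.56% of members and 1.72% of the other nuclei and was too low to be tested. Among 22 tested adhesion and guidance genes, Cntnap4, a neurexin-family protein, and Slit2, a secreted guidance cue, rose, and Cdh13, a cadherin without a cytoplasmic tail, fell. Cdh13 had 112 CPM in the members (0 to 239), against 530 CPM (262 to 909), without overlap (-2.52 ± 0.42, adjusted p = 0.00143). The calls of Cntnap4 (adjusted p = 0.0401) and Slit2 (adjusted p = 0.0347) were lost on leaving out most single labels.

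**Figure D4:**
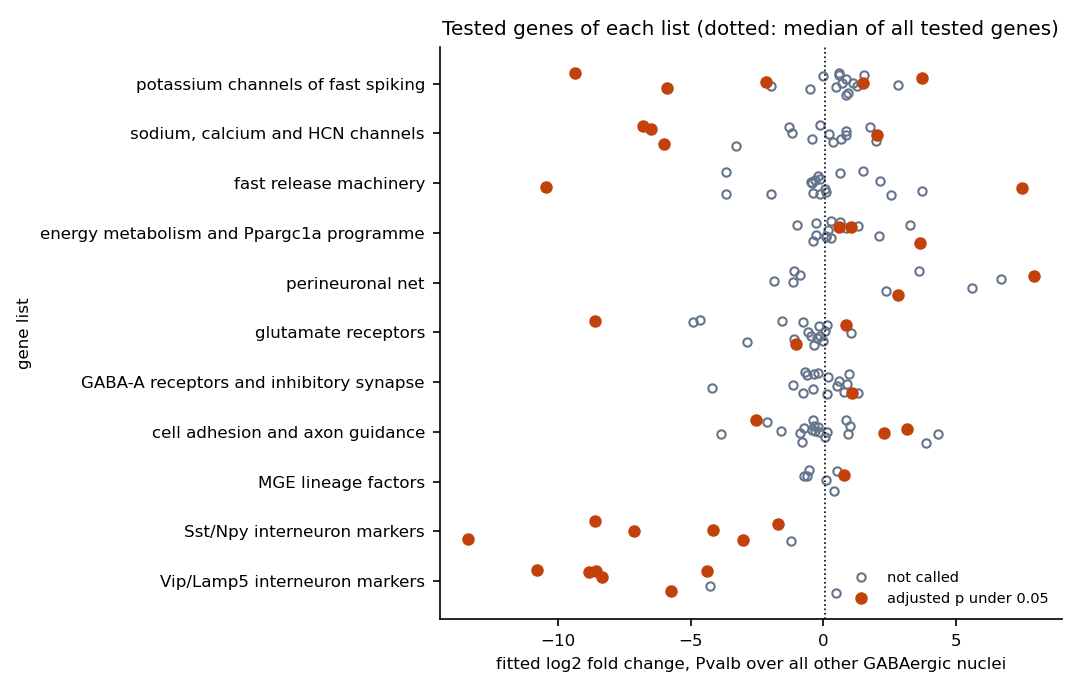
Fitted log2 fold change of each tested gene of 11 lists, Pvalb over all other GABAergic nuclei; filled points passed an adjusted p of 0.05 and the dotted line is the median of all tested genes, 0.06. All called markers of Sst/Npy and Vip/Lamp5 interneurons lie left of the line, whereas the channel, matrix and metabolism lists have called genes of both or of positive sign; values past about 5 in size belong to genes with few or no reads in 1 class.

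Ranked by fitted fold change among the called genes read in at least 30% of the higher class, the 12 highest in the members were Mybpc1, Syt2, Myo1e, Prss23, Rgcc, St3gal6, Cemip, Pde5a, Phlda1, Tmem108, Kcnip2 and Cox6a2. Tmem108, a transmembrane protein also known as retrolinkin, was read in 92.6% of members and 31.6% of the other GABAergic nuclei. Its label sums had a median of 1269 CPM in the members (200 to 1822), against 111 CPM (0 to 873), a ratio of 10.5 (adjusted p = 0.000196). Phlda1, a pleckstrin-homology protein, had 154 CPM in the members (86.5 to 485), against 16.3 CPM (0 to 43.9), and was the gene of the 12 whose ranges did not overlap (adjusted p = 0.00071). Cemip, which takes part in breaking down hyaluronan, was read in 82.4% and 13.8% (ratio 12.7, adjusted p = 0.00419). Mybpc1, a myosin-binding protein of slow muscle, was read in 41.2% and 2.87% (ratio 20.6, adjusted p = 0.0022). Prss23, a serine protease, was read in 50.0% and 4.598%, and Pde5a, a cGMP phosphodiesterase, in 56.6% and 13.2%, of members and of the other GABAergic nuclei. Tmem108, Phlda1, Cemip and Mybpc1 kept their calls in every alternative setting and on leaving out each label. St3gal6, a sialyltransferase, lost its call on leaving out any of 7 labels. Myo1e, Prss23 and Rgcc lost theirs in set AB-S40331 alone, with at least 5 nuclei per class and without the label block, and Pde5a in set AB-S40331 alone.

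The 12 lowest by the same ranking were Rgs6, Synpr, Unc13c, Gm28175, Ildr2, Reln, Grin3a, Trhde, Pou3f3, Igf1, Cacna1e and Cacna1g. Synpr, the vesicle protein synaptoporin, was read in 2.94% of members and 66.1% of the other GABAergic nuclei, with label medians of 0 and 730 CPM that did not overlap (adjusted p = 9.4e-07). Rgs6, a regulator of G protein signalling, was read in 0 of 136 members, which allows a share of up to 2.21%, and in 35.1% of the other nuclei (adjusted p = 0.00626). With 3 reads set for the members, its summed reads were 1050-fold lower there. Reln, the secreted protein reelin, was read in 4.41% and 54.6% (adjusted p = 9.18e-05). Igf1, an insulin-like growth factor, was read in 5.88% and 40.2% (adjusted p = 0.0022). Trhde, an enzyme that degrades thyrotropin-releasing hormone, was read in 5.15% and 36.2% (adjusted p = 0.000102). Synpr, Unc13c, Reln, Grin3a, Trhde and Igf1 kept their calls in every alternative setting and on leaving out each label. Pou3f3, a POU-domain transcription factor, lost its call without AiE0452h and, like Ildr2, without the label block.

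**Figure D5:**
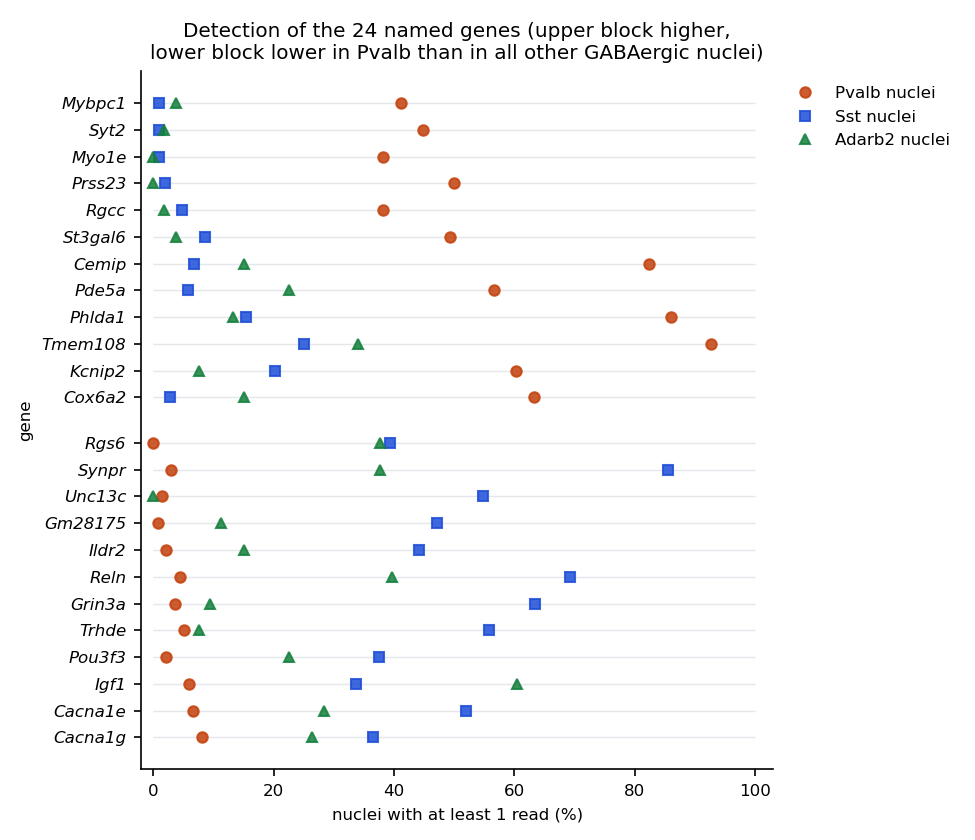
Share of nuclei with at least 1 read, in percent, for the 12 highest (upper block) and 12 lowest (lower block) named genes, in Pvalb, Sst and Adarb2 nuclei. Tmem108 was read in 92.6% of Pvalb nuclei and Rgs6 in 0; Unc13c was read in 54.8% of Sst nuclei and in no Adarb2 nucleus.

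Against the Sst nuclei alone, the sister class from the same eminence, 13 labels entered with 131 members and 100 Sst nuclei. Of 8875 genes tested, 82 were higher in the members (0.924%) and 71 lower (0.8%), and the median log2 fold change over all genes was 0.45. That median was 0.08 without the label block and 0.74 in set AB-S40331 alone, so fold changes against Sst nuclei stand on a raised base. DESeq2 called 898 higher and 279 lower, limma 491 and 222, the fit without the label block 38 and 63, and set AB-S40331 alone 51 and 23. All 4 tested marker genes rose. Kcnc1 had 918 CPM in the members (575 to 1499), against 312 CPM (176 to 445) in Sst nuclei, without overlap (log2 fold change 1.73 ± 0.18, adjusted p = 3.31e-06). Erbb4 had 421 CPM (253 to 961), against 39.9 CPM (0 to 131), without overlap (ratio 8.55, adjusted p = 0.00297). Cox6a2 had 149 CPM (74.8 to 400), against 0 CPM (0 to 36.3), without overlap (ratio 29.6, adjusted p = 2.29e-05), and this call held in set AB-S40331 alone. Pthlh had 102 CPM (9.44 to 282), against 0 CPM (0 to 60.0), with overlapping ranges (ratio 13.5, adjusted p = 0.000454). The Erbb4 call was lost in set AB-S40331 alone and with at least 5 nuclei per class, and that of Pthlh with at least 5 nuclei per class and without the label block. Against all other GABAergic nuclei, 3 of these 4 markers rose, and Pthlh did not pass. Pthlh was read in 29.4% of members and 8.62% of all other GABAergic nuclei.

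Among the 6 highest against Sst nuclei were Myo1e, Mybpc1, Cox6a2, Adm and Prss23. Adm, the peptide adrenomedullin, was read in 34.6% of members and 1.92% of Sst nuclei (adjusted p = 0.000591). Tac1, the precursor of substance P, was read in 46.3% and 7.69% (ratio 5.46, adjusted p = 0.00743), but lost its call with at least 5 nuclei per class and without the label block. Scn1a now passed, with 666 CPM in the members and 357 CPM in Sst nuclei (1.21 ± 0.27, adjusted p = 0.0158), as did Cplx1, with label sums of 221 to 1274 and 61.0 to 776 CPM in members and Sst nuclei (1.42 ± 0.27, adjusted p = 0.00355). Mef2c, a transcription factor of maturing interneurons, had 984 CPM in the members and 454 CPM in Sst nuclei (1.16 ± 0.20, adjusted p = 0.0014). The Scn1a, Cplx1 and Mef2c calls held on leaving out each label, whereas those of Scn1a and Mef2c were lost without nuclei over 1% mitochondrial reads, and those of Scn1a and Cplx1 with at least 5 nuclei per class and without the label block.

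The 6 lowest against Sst nuclei were Pdyn, Synpr, Unc13c, Gm28175, Reln and Ildr2. Pdyn, the precursor of dynorphin, was read in 0 of 136 members and 38.5% of Sst nuclei (adjusted p = 4.2e-07). With the read count stated above for a class with 0 reads set for the members, its summed reads were 7833-fold lower there. This ratio is no lower bound over nuclei. All 7 tested markers of the Sst/Npy list fell, namely Calb1, Crhbp, Elfn1, Grin3a, Npy, Pdyn and Rbp4, of which Calb1, Grin3a and Pdyn kept their calls in every setting that tested them. Npy and Elfn1 lost theirs on leaving out any of several labels, and Crhbp and Rbp4 in set AB-S40331 alone. Calb1, the calcium buffer calbindin, had 99.1 CPM in the members, against 985 CPM (-3.57 ± 0.54, adjusted p = 0.000351). Satb1, a chromatin organizer of this lineage, had 172 CPM in the members, against 415 CPM (-1.38 ± 0.31, adjusted p = 0.0184), and lost its call on leaving out AiE0452h or DLX2.0. Sox6 and Lhx6, factors that both classes need, were read in 80.1% and 36.03% of members and in 76.0% and 48.1% of Sst nuclei, and did not pass (adjusted p = 0.96 and 0.929). Grm7, a metabotropic glutamate receptor, fell as well, read in 12.5% of members and 59.6% of Sst nuclei (adjusted p = 0.0108), and lost its call in set AB-S40331 alone and with at least 5 nuclei per class.

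Against the Adarb2 nuclei, 8 labels entered with 86 members and 43 Adarb2 nuclei. Of 8234 genes tested, 58 were higher in the members (0.704%) and 36 lower (0.437%). The median log2 fold change over all genes was 1.23, or 1.11 with library totals in place of TMM scaling and 0.18 without the label block, so fold changes of this comparison stand on a raised base, and small positive ones are not read as differences. Members had more nuclei per sum and more genes per nucleus, and the part of these in that base was not tested. DESeq2 called 1765 higher and 172 lower, limma 588 and 117, and with at least 5 nuclei per class 5 were higher and 11 lower. Kcnc1 was the marker that rose, with 1061 CPM in the members (783 to 1251), against 404 CPM (243 to 547), without overlap (1.56 ± 0.31, adjusted p = 0.0131), which is little above the base, and its call was lost on leaving out CMV and with at least 5 nuclei per class. Erbb4 had 390 and 329 CPM in members and Adarb2 nuclei (0.44 ± 0.49, adjusted p = 0.743), Cox6a2 150 and 22.1 CPM (adjusted p = 0.298), and Pthlh 74.8 and 3.26 CPM (adjusted p = 0.375).

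The 6 highest against Adarb2 nuclei were Tac1, Moxd1, Nek7, Akr1c18, Prss23 and Crhbp, each with 0 reads in the Adarb2 nuclei of these labels. With the read count stated above for a class with 0 reads set for the Adarb2 nuclei, the summed reads of Tac1 were 2562-fold higher in the members (adjusted p = 2.3e-05). This ratio, too, is no lower bound over nuclei. Sox6 and Satb1, factors of the medial lineage, were read in 80.1% and 62.5% of members and in 3.77% of Adarb2 nuclei each, without overlap of the label sums (adjusted p = 0.0126 and 0.0054). The calls of Nek7, Akr1c18, Prss23, Crhbp, Sox6 and Satb1 were lost with at least 5 nuclei per class, and those of Prss23 and Crhbp also on leaving out CMV, whereas those of Tac1 and Moxd1 held in every setting that tested them. The 6 lowest were Cpne7, Kit, Car4, Egfr, Synpr and Sema3c. Kit, a receptor tyrosine kinase of Lamp5 interneurons, had 0 CPM at the median in the members (0 to 29.4), against 745 CPM (282 to 1325), and Egfr, the epidermal growth factor receptor, 0 CPM in every label, against 220 CPM (22.5 to 480) (adjusted p = 2.3e-05 and 0.00337). The Egfr call was lost with at least 5 nuclei per class. Of 8 tested Vip/Lamp5 markers, 7 fell, namely Cnr1, Cxcl14, Id2, Kit, Lamp5, Reln and Vip. Of these, Kit and Vip kept their calls in every setting that tested them, and the other 5 lost theirs on leaving out CMV and with at least 5 nuclei per class. Kcnn2 fell against Adarb2 nuclei too (adjusted p = 0.0314), with medians of 34.6 CPM in the members and 305 CPM in Adarb2 nuclei, and lost its call on leaving out most single labels. The comparisons share the member nuclei, and the Sst and Adarb2 nuclei are parts of the first reference.

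More genes were detected per nucleus in the members. At 100000 reads per nucleus the median over 14 labels of the label medians was 3051 genes in the members, against 2590 in the other GABAergic nuclei. The mean difference within labels was 417 ± 310 genes (SD), with the members higher in 13 of 14 labels (two-sided exact permutation test, p = 0.00061). AiE0391h was the label with fewer genes in the members, 5188, against 5460. In set AB-S40331 the members were higher in 11 of 11 labels, by 474 ± 280 genes (exact permutation test, p = 0.000977, the smallest this design gives). A nucleus with more genes is also more likely to show a Pvalb read and to enter the class, and that part was not tested.

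The members varied among themselves. Tac1 was read in 63 of the 136 (46.3%, 37.7 to 55.1), against 2.30% of Slc17a7 nuclei, and Pthlh in 40, with 18 members having both. The share with Pthlh was 28.6% in members with a Tac1 read and 30.1% in those without. Calb1 was read in 31 members, in 36.5% of those with Tac1 and 10.96% of those without. Npy, neuropeptide Y, was also read in 31 members, of which 21 had Tac1. These are descriptions of nuclei that share labels and carry no test. Members with and without Tac1 had 2998 and 3139 genes at the common depth, and median Pvalb levels of 430 and 556 CPM. Members with a Tac1 read came from 15 labels and those without from 13.

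Other subtype genes were read in fewer members. Akr1c18, a hydroxysteroid dehydrogenase, was read in 30.1% of members (22.6 to 38.6), against 18.3% of Sst and 1.84% of Slc17a7 nuclei. Mme, the peptidase neprilysin, was read in 27.9% (20.6 to 36.3), against 6.73% of Sst and 1.15% of Slc17a7 nuclei. Il1rapl2, an interleukin-1 receptor-like adhesion protein, was read in 24.3% (17.3 to 32.4), against 14.4% of Sst and 10.6% of Slc17a7 nuclei. Vipr2, the vasoactive intestinal peptide receptor that marks cortical chandelier cells, was read in 1 of 136 members (0.735%, 0.0186 to 4.03). Unc5b, a netrin receptor known from the same cells, was found in 2 members (1.47%, 0.179 to 5.21), both of which had Pthlh, and Th, tyrosine hydroxylase, in 2. Crh, corticotropin-releasing hormone, was read in 0 of 136, which allows up to 2.21%. The Vipr2 and Unc5b counts are too small to set a share of chandelier-type nuclei apart from single stray reads. Reln was read in 4.41% of members (1.64 to 9.36), against 69.2% of Sst and 7.36% of Slc17a7 nuclei, and Cpne5, a copine, in 5.88% (2.57 to 11.3), against 42.3% of Sst and 27.6% of Slc17a7 nuclei.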

How the data were processed

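Single nuclei were sorted for YFP and profiled by full-length cDNA (SMART-Seq v4, Nextera XT), per the labels' protocols. What the authors deposited is a table of raw counts, genes by nuclei; the reads carry no molecular identifiers, and intervals and limits for 0 cover counting error only. STAR 2.7.2a and the build mm10 come from the submitters' processing notes; for the counter, annotation, strand setting and introns nothing is given in the sources used here, and overlapping genes may share reads. Of 2501 columns, 797 matched a sample by library name and 1704 were not used. No 2 nuclei held identical counts. Doublets were not called. By design 1 sorted nucleus made 1 library, with no barcode shared between libraries, and whether any library held more than 1 nucleus was not tested.

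Nuclei with at least 50000 reads and 1000 genes were kept, which left out 16. CPM is a gene's count over the total of its nucleus, times 1e6. Gene positions are those of GENCODE M21, counted from 1. Of 7 genes looked up for promoters, 6 were in the RefSeq table. Counts were summed per vector label and class, with at least 3 nuclei of each, and fitted with edgeR 4.0.16 (filterByExpr, TMM, quasi-likelihood, label as block), with Benjamini-Hochberg adjustment over all genes tested. The SE of a fitted log2 fold change was its size over the square root of the quasi-likelihood F statistic, not a separate estimate. DESeq2 1.42.0 and limma 3.58.1 on log2(CPM + 1) were alternatives. The fits ran in R 4.3.3 and were tested on simulated data for the other GABAergic, Sst and Adarb2 comparisons, in this order. Of genes changed 2-fold, 1 of 61, 0 of 60 and 0 of 62 were called with the right sign. Of genes changed 8-fold, 32 of 59, 16 of 65 and 4 of 62 were. Of unchanged genes, 1 of 8965, 0 of 8062 and 0 of 7292 were called. Most true changes of 2-fold were thus missed. Genes per nucleus were compared by an exact paired permutation test on nuclei thinned to 100000 reads. Named genes were the 6 markers, the 12 highest and 12 lowest called genes against all other GABAergic nuclei, 6 and 6 against Sst and Adarb2 nuclei, and members of fixed lists. Some named genes are not reported here. Members and lists were chosen with earlier results of these data known. Alternatives were another filter, scaling, test, membership threshold and block, thinned reads, 1 library set, nuclei with few mitochondrial reads, and each label left out.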

Additional observations from a re-analysis of the deposited data

How the results depend on the processing

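The count of called genes depended on the fit more than the direction of named genes did. Against all other GABAergic nuclei the 158 calls became 934 with DESeq2, 946 with limma and equal weight per nucleus, 357 with no filter on low counts, 59 in set AB-S40331 alone, 98 without the label block, 101 with label and set as block, and 92 without nuclei over 1% mitochondrial reads. Against Sst nuclei the 153 calls became, in the same order, 1177, 713, 328, 74, 101, 129 and 100, and 88 with at least 5 nuclei per class. Against Adarb2 nuclei the 94 calls became 1937, 705, 189, 50, 73, 59 and 84, and 16 with at least 5 nuclei per class. Leaving out each label gave 113 to 184, 115 to 156 and 39 to 65 calls; the low end of the last came without CMV. DESeq2 also called 158 of the 158, 153 of the 153 and 92 of the 94 genes. No named gene changed direction under any setting run, but of 54, 44 and 36 named genes 30, 27 and 23 changed from called to not called in at least 1 setting other than leaving out a label, and 12, 10 and 15 did on leaving out a label. The causes were not tested. Named genes other than the markers were chosen as called genes, and each setting refitted the same nuclei or a part of them. A kept direction is thus no independent check of these genes. The share of members lay between 16.8% with a 50 CPM threshold and 19.8% in set AB-S40331, and the difference in genes per nucleus between 417 and 492.6, past its threshold in each setting. No paired analysis was possible because the numbers in the titles only count the nuclei of a vector, so no replicate number pairs samples across vectors; the pairing used throughout is that of the classes within a vector label.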

Other observations

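Pvalb reads also occurred outside the class. Of the 435 nuclei with Slc17a7, 30 had Pvalb at 10 CPM or more, with a median of 318 CPM among them, and 6 nuclei with neither Gad1 or Gad2 nor Slc17a7 had a median of 425.5 CPM. Npy had a median of 109 CPM in the label sums of the members (0 to 1773), against 1906 CPM (212 to 7141) in the other GABAergic nuclei. In the list of receptors for opioids and neuromodulators, Adra1a, an adrenergic receptor, was read in 34.6% of members and 2.88% of Sst nuclei, and Chrm3, a muscarinic receptor, in 40.4% and 76.9% (edgeR adjusted p = 0.0252 and 0.0396); both calls were lost on leaving out most single labels. Oprm1, the mu opioid receptor, was read in 0 of 136 members, which allows up to 2.21%, and in 5.17% of the other GABAergic nuclei.

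The class rests on 6 genes and on reads without molecular identifiers, labels are not stated to be separate animals, and every nucleus was sorted for reporter. Nuclei over 1% mitochondrial reads, all of set AB-S40317, were 7 of 136 members and 19 of 174 other GABAergic nuclei; without them 92 genes were called against the other GABAergic nuclei. Reads are not scaled by gene length, so levels of different genes were not compared.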
